A study of Mus musculus with 12 samples.

Results

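The data are gene counts from the female wild-type mouse embryonic stem cell line Pgk12.1, taken after differentiation (2 libraries) and in the undifferentiated state (2 libraries). Differentiated cells had formed embryoid bodies for 3 days without LIF, the cytokine that holds stem cells undifferentiated, and were then cultured for 6 days in 7.5% oxygen. Undifferentiated cells were grown in stem cell medium with LIF, and the labels do not give their oxygen level. All 23334 gene rows left after removing Rn45s, the ribosomal RNA precursor, and Lars2 were used, 4 of the 12 libraries of the series are described, and 12417 genes passed the filter on low counts. The other 8 libraries came from a female line labelled RlimKO (2 differentiated, 2 undifferentiated) and from the male WT line E14 (2 differentiated, 2 undifferentiated). Their labels give the same culture steps. The labels give strain C57BL/6 for every sample and total RNA as the molecule. The study followed Xist and X-linked genes in female cells against male cells to read the state of X inactivation. Each genotype is a single line, so sex, genotype and line cannot be told apart, and the labels do not say whether libraries came from separate cultures. The p-values below therefore measure only the spread between these libraries, which may be technical.

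Embryonic stem cells keep a naive pluripotent state through a network of transcription factors around Oct4 (Pou5f1), Nanog and Sox2, and they divide rapidly. On loss of LIF and aggregation into embryoid bodies this network is switched off, an outer layer of extraembryonic endoderm forms, and the inner cells give mesoderm, ectoderm and definitive endoderm. Cells that attach and spread afterwards often take on fibroblast, smooth muscle or beating cardiac muscle fates. In female cells the exit from pluripotency is also the time at which one X chromosome is coated by Xist RNA and silenced.

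Without Rn45s and Lars2 the differentiated libraries held 2666390 and 1967780 counts and the undifferentiated ones 946043 and 1034303, so low genes were measured less precisely in undifferentiated cells. A gene at 3 counts lay at 1.14 and 1.51 CPM in the differentiated libraries, against 3.16 and 2.81 CPM in the undifferentiated ones. CPM are counts scaled to a library total of 1e6 after this removal. They are not corrected for gene length, so levels are compared between groups and not between genes. Rn45s had taken 38.5% and 42.4% of the counts of the differentiated libraries and 49.9% and 46.3% of those of the undifferentiated ones. All 6 pairs of replicate libraries correlated at 0.918 or more on the log CPM scale, and the differentiated male pair stood apart from the other 5 (chi-square per degree of freedom 26.9, against 1.92 to 2.44). In that pair Rn45s took 22.5% and 6.36% of the gene counts and Lars2 0.862% and 0.0212%. Every other library of the series had at least 30.8% of Rn45s and 2.71% of Lars2. Without that pair 3761 genes were higher and 3665 lower in the WT line, and none of the WT calls named below was lost. The Y-linked genes Ddx3y, Eif2s3y and Uty had 0 counts in all 4 WT female libraries. Rlim itself, whose ubiquitin ligase product acts in X inactivation, had 535 and 563 CPM in differentiated and 322 and 300.0 CPM in undifferentiated libraries labelled RlimKO, so that label could not be checked from these counts.

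Of 12417 genes, 6215 (50.1%) differed between differentiated and undifferentiated cells at an adjusted p under 0.05: 3201 were higher in differentiated cells (25.8% of those tested) and 3014 lower (24.3%). Of these, 1534 were higher and 769 lower by at least 4-fold. The libraries of the 2 groups did not overlap in 6214 of the 6215 genes, so a lack of overlap adds nothing to a call. In 340 of the genes that rose no read at all was counted in undifferentiated cells, and in 22 of those that fell none was counted in differentiated cells. The same direction was called in all 3 lines for 2189 of the higher and 1932 of the lower genes, where the RlimKO-labelled line had 24.5% of genes higher and 25% lower and the male line 29.2% and 25.7%. The genes below were drawn by rule from 37 lists of pathway and cell type genes and from the largest and most certain changes. Every change is the log2 fold change of differentiated over undifferentiated cells ± SE (n = 2 libraries each) from edgeR's quasi-likelihood fit over all 12 libraries, with its Benjamini-Hochberg adjusted p. The SE was derived as the size of the log2 change divided by the square root of its F statistic. It is only approximate for genes near 0 counts in a group. Counts of list members of 4 or fewer moved by at most 3 when any 1 of the 12 libraries was left out. A list's counts and median cover only its members that passed the filter on low counts. A member with 0 counts in undifferentiated cells passed only through the libraries where it was read, those of the other lines among them. If it was read in differentiated WT cells it could only be higher there. Lists with many such members are described and not ranked. Medians count a gene with 0 counts in a group at the bound that 3 counts over that group would give, which holds the medians of those lists down.

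**Figure D1:**
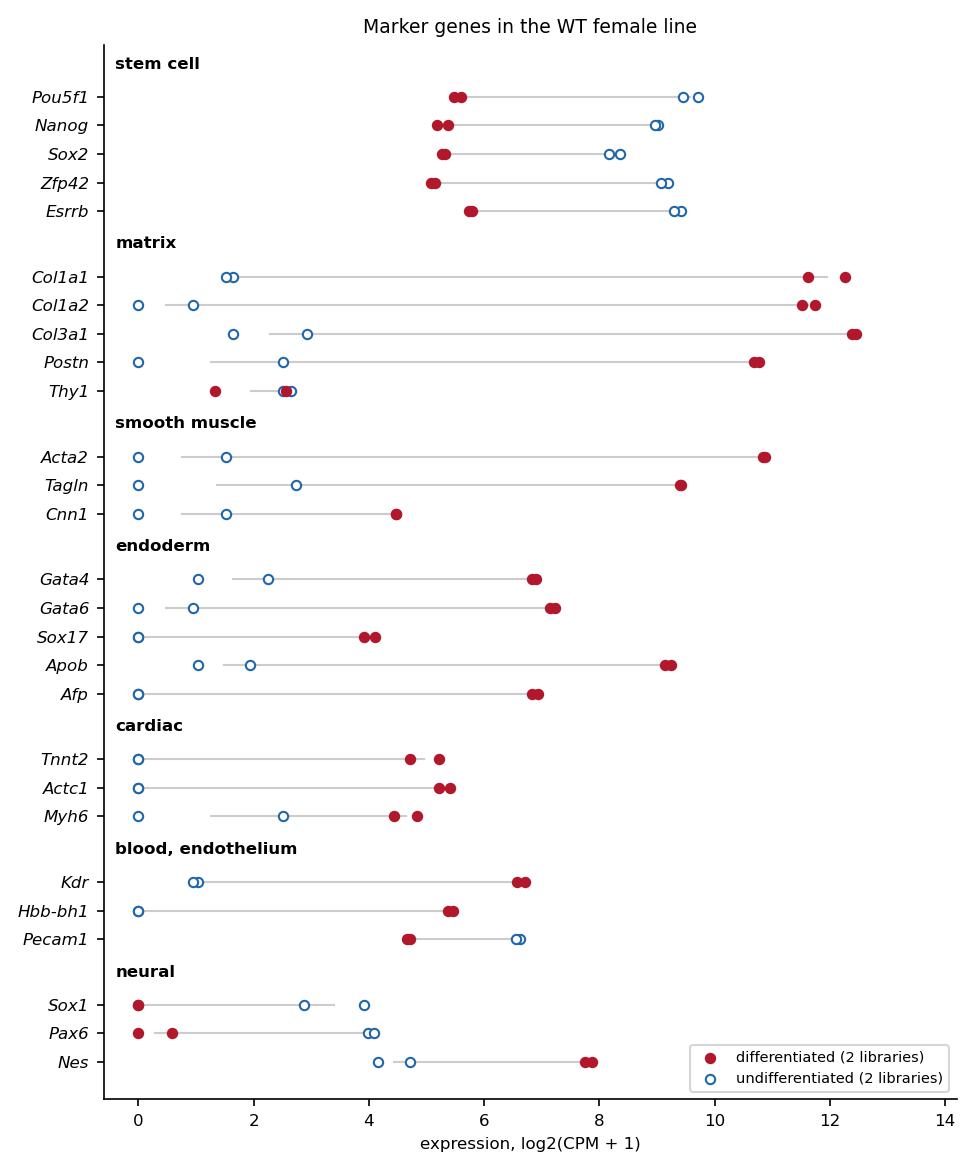
Expression of marker genes in the WT female line, on the log2(CPM + 1) scale. Filled red points are the 2 differentiated libraries, open blue points the 2 undifferentiated ones, and grey lines join the group means. Stem cell factors lay lower in differentiated cells, matrix, contractile, endoderm and cardiac genes lay higher apart from Thy1, and the neural and the blood and endothelial genes were mixed.

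The pluripotency network was lower in differentiated cells. Of 18 naive pluripotency genes tested, 17 fell and 0 rose, with a median log2 change of -3.27, and of 21 core and general pluripotency genes 20 fell and 0 rose, with a median of -3.03, against a median of 0.01 over all genes tested. Pou5f1, the gene of Oct4, had 43.6 and 47.4 CPM in differentiated libraries, against 697 and 838 CPM in undifferentiated libraries (-4.08 ± 0.21, adjusted p = 3.57e-09). Its partner Nanog had 40.6 and 35.3 CPM, against 517 and 502 CPM in undifferentiated cells (-3.74 ± 0.23, adjusted p = 2.16e-08). The libraries of each group lay close together and far from those of the other, and both genes were still above 30 CPM in differentiated cells. Sox2 was at 37.5 and 38.8 CPM, against 328 and 287 CPM in undifferentiated cells. Zfp42 (Rex1), a marker of the naive state, was at 34.5 and 32.8 CPM in differentiated libraries, against 581 and 534 CPM in undifferentiated ones (-4.04 ± 0.26). Esrrb, an orphan nuclear receptor of the same network, stood at 52.7 and 54.5 CPM, against 680.0 and 624 CPM in undifferentiated cells (-3.60 ± 0.23).

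The secreted signals of the pluripotent state fell with the transcription factors. Fgf4, the growth factor that primes stem cells for differentiation, was at 21.6 and 19.7 CPM in differentiated libraries, against 324 and 334 CPM in undifferentiated libraries (-3.98 ± 0.23, adjusted p = 1.17e-08). Lefty1, an inhibitor of Nodal signalling, was at 1.52 and 3.53 CPM, against 117 and 171 CPM in undifferentiated cells (-5.87 ± 0.37), and the Nodal co-receptor gene Tdgf1 was at 54.2 and 58.5 CPM, against 625 and 551 CPM (-3.38 ± 0.20). L1td1, an RNA-binding protein gene of stem cells, had 45.9 and 49.9 CPM, against 1127 and 999 CPM in undifferentiated cells. The largest fitted falls among genes of at least 10 CPM included Fgf17, at 0.379 and 0.505 CPM in differentiated libraries against 54.8 and 87.2 CPM in undifferentiated ones, and the transcription factor Gbx2, at 0 and 0.505 against 14.8 and 22.5 CPM. Slc47a1, an organic cation exporter, had 0 counts in differentiated cells and 25.3 and 15.002 CPM in undifferentiated cells, at least 30.6-fold lower in differentiated cells. The formative and primed genes did not move as a block: of 9 tested, 4 rose and 2 fell (44.4% and 22.2%, against 25.8% and 24.3% of all genes tested). Dnmt3b and Zic2 fell (-2.30 ± 0.19 and -2.93 ± 0.35), while Sox4 was at 127 and 138 CPM in differentiated libraries, against 9.49 and 16.9 CPM in undifferentiated ones (3.30 ± 0.34), and Dnmt3a rose by 1.48 ± 0.26.

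Promoter sequence is shown for 1 gene that fell and 2 that rose, to set a known factor motif beside the change. The windows are the 250 bases before the annotated start, from RefSeq on build GRCm38.p6, read in the direction of transcription, with the motif match in capitals. Motifs were searched on both strands. The string TTTGCAT is part of the octamer motif bound by Oct4 and its relatives, and the full octamer was not searched. TTTGCAT was in the window of 3 of the 23 fallen naive and core pluripotency genes with a RefSeq window (13.0%: Nanog, Sox2 and Zfp42), against 4.65% of all 27025 genes. In Nanog, 1 of 2 annotated starts is shown, and its match begins 75 bases before that start.
Nanog (chr6:122707239-122707488, plus strand): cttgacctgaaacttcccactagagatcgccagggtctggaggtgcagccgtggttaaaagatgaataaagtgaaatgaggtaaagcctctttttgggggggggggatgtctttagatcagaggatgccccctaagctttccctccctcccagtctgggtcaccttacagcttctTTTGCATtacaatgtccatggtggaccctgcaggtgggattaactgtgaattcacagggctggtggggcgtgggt
The CArG box, bound by serum response factor at genes of the contractile apparatus, was in 2 of the 11 smooth muscle genes that rose and have a window (18.2%: Cnn2 and Myl9) and in 1 of 9 such cardiac genes (11.1%: Actc1), against 1.62% of all genes. It begins 161 bases before the start of Myl9, the regulatory light chain of smooth muscle myosin, and 47 bases before that of Actc1, cardiac actin.
Myl9 (chr2:156775214-156775463, plus strand): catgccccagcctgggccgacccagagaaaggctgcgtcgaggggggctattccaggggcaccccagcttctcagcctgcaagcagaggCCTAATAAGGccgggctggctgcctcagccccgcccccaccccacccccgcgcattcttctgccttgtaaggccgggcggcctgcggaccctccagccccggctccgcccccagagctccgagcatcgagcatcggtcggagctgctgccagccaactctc
Actc1 (chr2:114052876-114053125, minus strand): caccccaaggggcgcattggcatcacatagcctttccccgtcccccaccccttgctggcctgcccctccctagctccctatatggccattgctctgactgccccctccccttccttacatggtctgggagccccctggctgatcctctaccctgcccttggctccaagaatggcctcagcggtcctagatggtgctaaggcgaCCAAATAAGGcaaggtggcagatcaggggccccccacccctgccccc
These matches describe letters in a window and not binding, and no match was read as anything but the absence of those letters.

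Connective tissue matrix and contractile genes rose. Of 34 fibroblast and connective matrix genes tested, 32 rose and 1 fell (median 5.64), of 15 smooth muscle and contractile genes 14 rose and 0 fell (median 4.6), and of 14 regulators of the epithelial-mesenchymal transition all 14 rose (median 4.63). In these lists 5 of the 34, 1 of the 15 and 4 of the 14 had 0 counts in undifferentiated cells. The fibrillar collagen gene Col1a1 was at 4902 and 3165 CPM in differentiated libraries, against 2.11 and 1.88 CPM in undifferentiated libraries (10.94 ± 0.77, adjusted p = 7.09e-08). Col3a1, another fibrillar collagen gene, was at 5594 and 5381 CPM, against 2.11 and 6.56 CPM (10.24 ± 1.27), and Postn, a matrix protein of fibroblasts and heart valves, at 1642 and 1744 against 0 and 4.69 CPM. The undifferentiated libraries were at or near 0 for all 3, and the differentiated libraries were far above them. Several matrix genes had no count in either undifferentiated library. Tenascin C (Tnc) reached 919 and 808 CPM, at least 585-fold higher in differentiated cells, Col12a1 564 and 566 CPM, at least 379.6-fold higher, and lumican (Lum) 228 and 236 CPM, at least 155-fold higher. Lox, the enzyme that cross-links collagen, had 169 and 157 CPM in differentiated libraries and 0 in undifferentiated ones. Pdgfra, a receptor of mesenchymal cells, likewise had 168 and 165 CPM and 0. The collagen chaperone gene Serpinh1 was already measurable in undifferentiated cells, at 1342 and 1406 CPM in differentiated against 74.8 and 82.5 CPM in undifferentiated libraries (4.12 ± 0.17, adjusted p = 9.77e-10). The intermediate filament gene Vim was at 1342 and 1328 against 129 and 153 CPM (3.24 ± 0.17), and the matricellular genes Thbs1 and Cyr61 rose by 7.95 ± 0.38 and 6.51 ± 0.32. Thy1, a surface marker of many fibroblasts, did not pass the test, at 4.93 and 1.51 CPM in differentiated and 5.27 and 4.69 CPM in undifferentiated libraries.

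Acta2, smooth muscle actin, was at 1873 and 1831 CPM in differentiated cells, against 0 and 1.88 CPM in undifferentiated cells, a ratio of 1869 with a 95% counting interval of 517 to 15436. Actg2, the enteric form, had 222 and 185 CPM in differentiated cells and 0 counts in undifferentiated cells. Tagln, an actin-bundling protein of smooth muscle, was at 683 and 675 against 0 and 5.63 CPM (adjusted p = 1.89e-09). The actin regulators Cald1, Tpm1 and Cnn2 rose by 4.54 ± 0.23, 4.24 ± 0.22 and 4.72 ± 0.23. Myl9 and Cnn1 were named after their values were seen. Myl9, whose promoter is printed above, stood at 188 and 154 against 0 and 0.938 CPM, and calponin (Cnn1) at 21.2 and 21.2 against 0 and 1.88 CPM. In each of these genes both differentiated libraries lay above both undifferentiated ones, a lack of overlap that nearly every called gene shared. Among the transition regulators, N-cadherin (Cdh2) was at 204 and 189 CPM in differentiated libraries, against 10.5 and 8.44 CPM in undifferentiated libraries (4.37 ± 0.29), and the mesenchymal cadherin Cdh11 at 751 and 739 against 0 and 1.88 CPM. The repressor Zeb2 rose by 6.04 ± 0.64. The receptor gene Tgfbr2 had 73.2 and 69.6 CPM and 0 counts in undifferentiated cells, at least 48.1-fold higher.

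**Figure D2:**
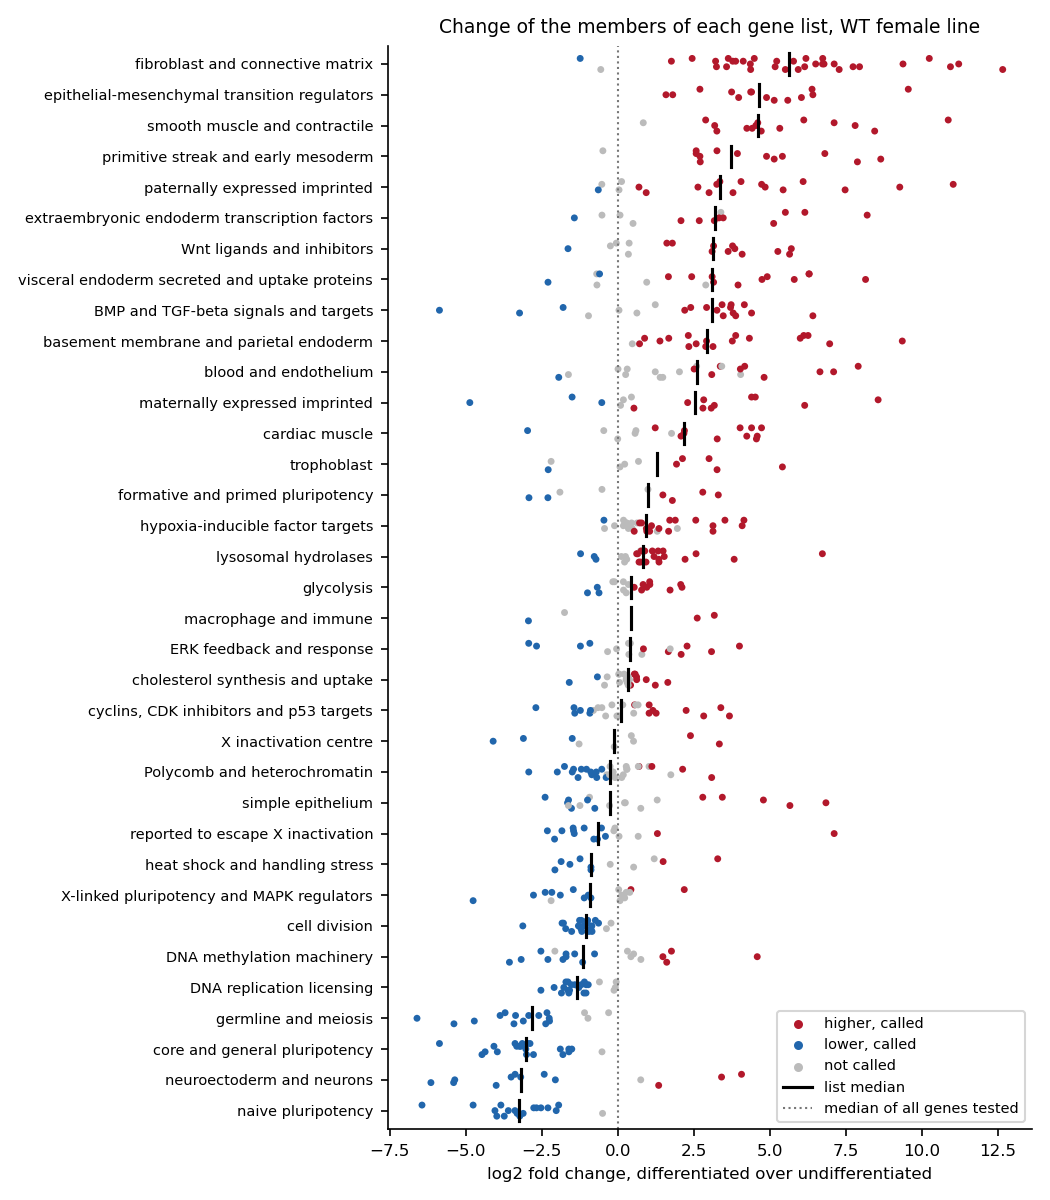
Log2 fold change of differentiated over undifferentiated WT female cells for the tested members of 35 of the 37 gene lists, 1 point a gene, with the list median as a black line and the median of all genes tested (0.01) as a dotted line. Red points were called higher, blue lower, grey neither, genes with 0 counts in a group are drawn at their bound and genes with 1 to 3 counts at their ratio. Most points of the matrix, transition and contractile lists lie above the dotted line, and most of the pluripotency, neural and germline lists below it.

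Basement membrane genes, which parietal and visceral endoderm make in quantity, rose in 18 of 19 tested (median 2.92). Of the 19, 3 had 0 counts in undifferentiated cells. Col4a1, a chain of collagen IV, was at 2851 and 2815 CPM in differentiated libraries, against 46.4 and 35.6 CPM in undifferentiated libraries (6.11 ± 0.20, adjusted p = 1.52e-10). Its partner chain Col4a2 was at 1493 and 1442 CPM, against 26.4 and 19.7 CPM in undifferentiated cells (6.00 ± 0.29). Sparc, a collagen-binding protein, was at 1874 and 1718 CPM, against 135 and 129 CPM in undifferentiated cells, and laminin alpha 1 (Lama1) at 589 and 584 against 67.5 and 87.2 CPM (2.92 ± 0.17). Each gene given here with its CPM was already measured above the 3-count level in both undifferentiated libraries. The groups did not overlap, as in nearly every gene called.

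Part of the extraembryonic endoderm genes were higher in differentiated cells. Of 16 endoderm transcription factors in the counts 14 were tested, of which 9 rose and 1 fell, and 4 of the 14 had 0 counts in undifferentiated cells. Of 30 visceral endoderm secreted and uptake proteins 17 were tested, of which 11 rose and 2 fell, and 3 of the 17 had 0 counts in undifferentiated cells. The 13 not tested, among them the genes of albumin (Alb), transferrin (Trf) and the signal inhibitor Cer1, had at most 13 counts in a differentiated and 3 in an undifferentiated library. Gata4, a zinc-finger factor of endoderm and heart, was at 118 and 114 CPM in differentiated libraries, against 1.05 and 3.75 CPM in undifferentiated libraries (5.51 ± 0.45, adjusted p = 2.67e-07). Gata6, its relative that sets primitive endoderm fate, was at 150.1 and 141 against 0 and 0.938 CPM. Sox17 and Foxa2, which visceral and definitive endoderm share, both had 0 counts in undifferentiated cells. In differentiated libraries Sox17 was at 14.02 and 16.1 CPM and Foxa2 at 10.2 and 8.58 CPM. The nuclear receptor Nr2f2, which mesenchyme also expresses, was at 34.9 and 35.8 against 1.05 and 0 CPM. Apob, the protein of lipoproteins made by yolk sac and liver, was at 559.8 and 603 CPM in differentiated cells, against 1.05 and 2.81 CPM in undifferentiated cells (8.15 ± 0.30, adjusted p = 2.45e-10). Dab2, an endocytic adaptor of visceral endoderm, was at 256 and 250.2 CPM, against 5.27 and 3.75 CPM in undifferentiated cells (5.80 ± 0.26). The uptake receptor gene Cubn was at 92.5 and 90.8 CPM, against 3.16 and 2.81 CPM (4.91 ± 0.52). Afp had 113 and 121 CPM and 0 counts in undifferentiated cells, at least 78.1-fold higher, and the thyroxine carrier gene Ttr was at 40.2 and 37.3 against 1.05 and 0 CPM. Every endoderm gene given here with its CPM was one that rose. The 1 transcription factor and the 2 secreted or uptake genes that fell are not among them. The rule also drew Foxq1 from the transcription factors and Dkk1 from the secreted and uptake proteins, and neither is given here.

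Several mesoderm genes were higher in differentiated cells, while several early streak genes were hardly read in either state. Of 24 primitive streak and early mesoderm genes in the counts 13 were tested, of which 12 rose and 0 fell, and 6 of the 13 had 0 counts in undifferentiated cells. The 11 not tested had at most 26 counts in a differentiated library (Meox1) and 3 in an undifferentiated one. Among them T (brachyury), the factor that marks the streak, had 2 and 3 counts in differentiated and 0 in undifferentiated libraries, Mixl1 had 8 and 5 against 1 and 0, and Mesp1 had 0 and 0 against 0 and 1. Tbx20, a T-box factor of the heart, was at 348 and 355 CPM in differentiated libraries, against 1.05 and 1.88 CPM in undifferentiated libraries (adjusted p = 3.57e-09). Hand1, a factor of lateral and extraembryonic mesoderm, was at 60.3 and 67.6 CPM and had 0 counts in undifferentiated cells. Its relative Hand2 was at 205 and 191 CPM, against 0 and 0.938 CPM in undifferentiated cells. The ligand gene Bmp4 was at 101 and 71.1 against 11.6 and 6.56 CPM (3.26 ± 0.29). Of 24 cardiac muscle genes 17 were tested, of which 11 rose and 1 fell, and 6 of the 17 had 0 counts in undifferentiated cells. Troponin T2 (Tnnt2) had 36.01 and 25.2 CPM, troponin I1 (Tnni1) 38.7 and 30.3 CPM and Actc1 41.7 and 36.3 CPM in differentiated cells, all with 0 counts in undifferentiated cells. Mef2c, a factor of muscle and endothelium, was at 27.3 and 29.3 CPM and also had 0 counts in undifferentiated cells. Myh6, cardiac myosin, was at 27.7 and 20.7 against 0 and 4.69 CPM, the calcium channel gene Ryr2 rose by 1.23 ± 0.24, and the atrial light chain gene Myl7 missed the threshold (1.77 ± 0.71, adjusted p = 0.0521). Myl7 passed in 10 of 23 alternatives (adjusted p from 0.00607 to 0.0468), among them those without either differentiated male library. The 1 cardiac gene that fell was the methyltransferase gene Smyd1, at 5.69 and 6.56 CPM in differentiated libraries, against 39.01 and 57.2 CPM in undifferentiated libraries (-2.97 ± 0.47).

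Markers of other cell types that the cultures could hold were read as a check. Of 28 blood and endothelial genes 21 were tested, of which 9 rose and 1 fell, and 4 of the 21 had 0 counts in undifferentiated cells. Kdr, a receptor of VEGF, was at 104 and 93.8 CPM in differentiated cells, against 1.05 and 0.938 CPM in undifferentiated cells. Flt1, another VEGF receptor gene, was at 125 and 110.5 against 0 and 0.938 CPM, and the blood factor Runx1 at 70.1 and 65.1 against 0 and 0.938 CPM. The embryonic globin gene Hbb-bh1 had 42.8 and 40.4 CPM and 0 counts in undifferentiated cells (adjusted p = 0.0207), a call lost without either undifferentiated WT library (adjusted p up to 0.113). Pecam1, which stem cells express as well as endothelium, fell by 1.95 ± 0.51. The count of 9 rising genes was 4 or 5 without any 1 of the 4 WT libraries (4 without undifferentiated replicate 1) and 14 without either differentiated male library. Of 15 macrophage and immune genes in the counts, 4 were tested, of which 2 rose and 1 fell. The 1 that fell was Laptm5, which had the smallest p of the 4. Csf1r, the receptor that macrophages need, was at 11.8 and 15.6 CPM in differentiated libraries, against 3.16 and 0 CPM in undifferentiated libraries. Cx3cr1, a chemokine receptor gene, was at 9.10 and 9.08 CPM and had 0 counts in undifferentiated cells. Neither was called without undifferentiated WT replicate 2, and Csf1r was not called without differentiated WT replicate 2. The count of 2 was then 0 and 1. The defining immune genes Ptprc and Lyz2 had 6 to 8 counts in each differentiated library and 0 in the undifferentiated ones, and the whole list summed to 65.6 and 56.5 CPM in differentiated, against 118 and 77.8 CPM in undifferentiated libraries. Of 20 trophoblast genes 10 were tested, of which 5 rose and 1 fell, and 4 of the 10 had 0 counts in undifferentiated cells. Cdx2, a trophoblast and hindgut factor, was at 7.20 and 5.55 CPM and Krt7 at 17.1 and 10.6 CPM in differentiated libraries. Both had 0 counts in undifferentiated cells, and the placental marker Tpbpa had 0 counts in all 4 libraries. Cdx2 and Krt7 were among the trophoblast genes that rose. Tfap2c and Gata3, which the rule also drew, are not given here. Among simple epithelial genes 5 of 19 rose and 6 fell (26.3% and 31.6%, against 25.8% and 24.3% of all genes tested). Those that rose included the keratin gene Krt8, at 224 and 233 CPM in differentiated, against 2.11 and 6.56 CPM in undifferentiated libraries, its partner Krt18, at 194 and 220.5 against 5.27 and 9.38 CPM, and Krt19, at 111 and 118 against 0 and 1.88 CPM. Of the simple epithelial list only genes that rose are given here, and its median was -0.27. Anxa3, Grhl2 and Ezr, which the rule also drew, are not given. In bulk RNA, fewer cells of a type and less RNA in each cell cannot be told apart.

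Most neural genes that could be tested fell. Of 25 in the counts 13 were tested, of which 9 fell and 3 rose, and the 12 not tested had at most 4 counts in a differentiated and 12 in an undifferentiated library. Sox1, an early neural transcription factor, had 0 counts in differentiated cells and 6.33 and 14.1 CPM in undifferentiated libraries. Pax6, a factor of neural progenitors, was at 0 and 0.505 CPM in differentiated libraries, against 14.8 and 15.9 CPM in undifferentiated ones. The neuronal genes Stmn2 and Ina fell by 3.51 ± 0.26 and by 5.40 ± 0.63, and neuronal tubulin (Tubb3) was at 19.7 and 18.7 against 75.9 and 84.4 CPM. The 3 that rose included Sox11 and nestin (Nes), which mesenchymal cells also express. Sox11 was at 219 and 215 CPM in differentiated, against 10.5 and 15.002 CPM in undifferentiated libraries (4.07 ± 0.24), and Nes at 213 and 233 against 25.3 and 16.9 CPM (3.41 ± 0.28).

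Imprinted genes, read from the maternal or the paternal copy alone, mostly rose. Of 19 paternally expressed genes tested, 15 rose and 1 fell (median 3.36), and of 16 maternally expressed genes 10 rose and 3 fell (median 2.55). H19, a maternally expressed non-coding RNA of the embryo, was at 12003 and 13040.2 CPM in differentiated libraries, against 47.4 and 19.7 CPM in undifferentiated libraries (8.56 ± 0.50, adjusted p = 1.37e-08). It made up 1.19% and 1.31% of the counts of the differentiated libraries. Igf2, the growth factor gene beside it that is read from the paternal copy, was at 2269 and 2102 CPM, against 1.05 and 5.63 CPM in undifferentiated cells (9.27 ± 0.73, adjusted p = 2.11e-07). In both genes the differentiated libraries lay close together and far above the undifferentiated ones, which spread more. Paternally expressed Dlk1, a Notch-like surface protein, was at 1174 and 860.2 against 0 and 0.938 CPM, and its maternally expressed neighbour on chromosome 12, Meg3, at 2345 and 2257 against 277 and 233 CPM (3.17 ± 0.19). Rian, a further non-coding RNA of that cluster, was at 1784 and 1875 CPM, against 371 and 374 CPM in undifferentiated cells (2.30 ± 0.24). Retrotransposon-derived Rtl1 of the same cluster rose by 3.79 ± 0.33 and Peg10 of chromosome 6 by 3.00 ± 0.16. The zinc-finger gene Plagl1 was at 2259 and 1984 CPM in differentiated libraries, against 6.33 and 16.9 CPM in undifferentiated libraries (7.48 ± 0.58). Peg3, another zinc-finger gene, was at 5597 and 5108 against 198 and 174 CPM (4.85 ± 0.33). Maternally expressed Gnas rose by 3.07 ± 0.23 and the cell cycle inhibitor Cdkn1c by 2.82 ± 0.38. Against this direction, Cobl, an actin nucleator, was at 10.99 and 13.1 CPM in differentiated cells, against 383 and 322 CPM in undifferentiated cells (-4.87 ± 0.21, adjusted p = 1.32e-09). Grb10, an adaptor that restrains growth signals and was named after its values were seen, fell by 1.51 ± 0.22. Igf2r, the receptor that clears IGF2, was at 124 and 132 against 194 and 175 CPM (-0.53 ± 0.16, adjusted p = 0.0137), a call lost without undifferentiated or differentiated WT replicate 1 (adjusted p up to 0.0899). Reads were not separated by parental allele or by strand.

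**Figure D3:**
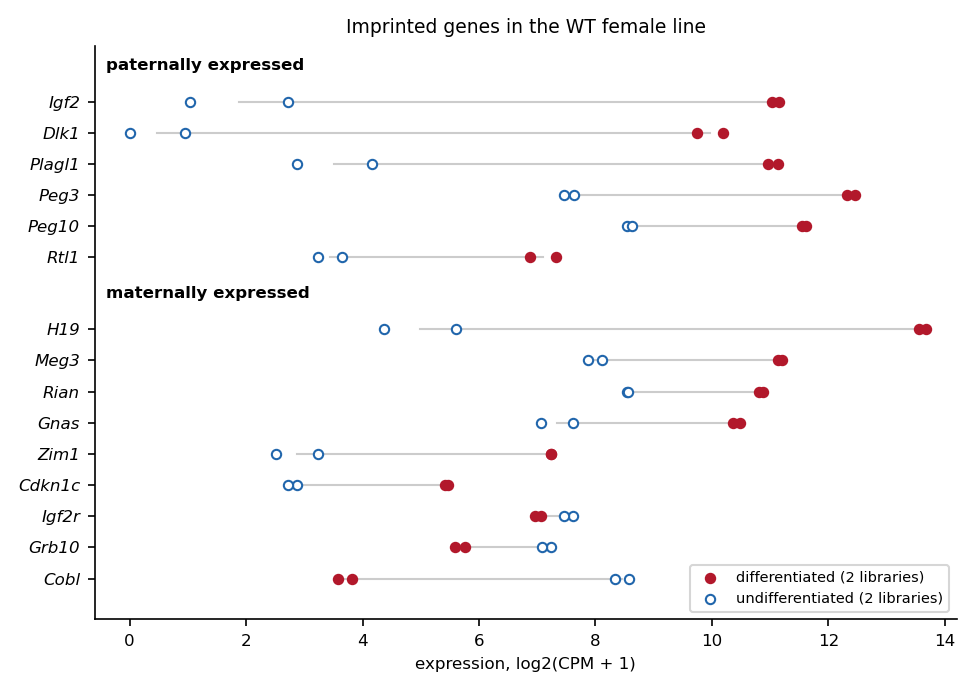
Expression of imprinted genes in the WT female line on the log2(CPM + 1) scale. Filled red points are the 2 differentiated libraries and open blue points the 2 undifferentiated ones. H19, Igf2, Dlk1 and Plagl1 lie furthest apart, and Igf2r, Grb10 and Cobl lie lower in differentiated cells.

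Genes of cell division and DNA replication fell together. Of 22 cell division genes tested, 20 fell and 0 rose (median -1.06), and of 22 replication licensing genes 18 fell and 0 rose (median -1.35). Mybl2, a transcription factor of dividing cells, was at 83.01 and 68.1 CPM in differentiated libraries, against 624 and 702 CPM in undifferentiated libraries (-3.13 ± 0.32). Bub1b, of the spindle checkpoint, was at 188 and 173 CPM, against 517 and 522 CPM in undifferentiated cells, and its target Cdc20 at 81.5 and 75.7 against 253 and 264 CPM. Of the replicative helicase, Mcm5 was at 124 and 119 CPM, against 476 and 566 CPM in undifferentiated cells (-2.10 ± 0.16, adjusted p = 1.65e-07), and Mcm2 fell by 1.61 ± 0.14 and the sliding clamp gene Pcna by 1.42 ± 0.16. Both list medians were nearer to 0 than those of the pluripotency lists. Among cyclins and their inhibitors 9 of 26 rose and 6 fell (34.6% and 23.1%, against 25.8% and 24.3% of all genes tested). Cyclin E1 (Ccne1) fell by 2.70 ± 0.18, while cyclin D2 (Ccnd2) was at 526 and 524 CPM in differentiated cells, against 41.1 and 41.3 CPM in undifferentiated cells (3.67 ± 0.36). The inhibitors Cdkn1a (p21) and Cdkn2b (p15) rose by 2.24 ± 0.35 and 3.39 ± 0.45, and Trp53 fell by 1.42 ± 0.17.

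More genes of the DNA methylation machinery fell than rose. Of 19 tested, 10 fell and 4 rose (52.6% and 21.1%, against 24.3% and 25.8% of all genes tested). Tet1, which oxidises methylcytosine in stem cells, was at 194 and 213 CPM in differentiated libraries, against 1868 and 1833 CPM in undifferentiated libraries (-3.18 ± 0.14, adjusted p = 1.32e-09). The cofactor gene Dnmt3l was at 12.9 and 9.59 against 127 and 144 CPM (-3.57 ± 0.43), and the maintenance factor Uhrf1 fell by 1.71 ± 0.19. Zfp57 and Trim28, which protect methylation at imprinted loci, fell by 1.81 ± 0.16 and by 1.42 ± 0.14. Of 33 Polycomb and heterochromatin genes, 14 fell and 4 rose, and the rising count ran from 4 to 7 over fits that left out a library. Jarid2, an accessory subunit of PRC2, was at 242 and 243 CPM, against 828 and 814 CPM in undifferentiated cells, and Mtf2, another, at 219 and 210.4 against 670.5 and 548 CPM. The core subunit gene Eed fell by 1.31 ± 0.16. Of PRC1, Cbx7 was at 23.5 and 20.7 against 161 and 178 CPM (-2.93 ± 0.26) and Phc1 at 75.8 and 83.2 against 434 and 516 CPM (-2.58 ± 0.15). Germline and meiosis genes, several of which stem cells transcribe, fell in 14 of 17 tested and rose in 0 (median -2.82), and of 4 tested genes of the 2-cell-like state, a rare state of stem cell cultures, none passed. Hormad1, of the meiotic chromosome axis, was at 1.90 and 0 CPM in differentiated cells, against 122 and 99.4 CPM in undifferentiated cells. The meiotic cohesin genes Stag3 and Smc1b fell by 2.25 ± 0.17 and by 3.88 ± 0.36, and Tdrd12, of the piRNA pathway, by 4.72 ± 0.46. Of 11 heat shock and handling stress genes, 6 fell and 2 rose (54.5% and 18.2%). Hsp90aa1 was at 1725 and 1851 CPM in differentiated libraries, against 8171 and 6867 CPM in undifferentiated libraries (-2.07 ± 0.18), and the mitochondrial chaperone gene Hspd1 fell by 1.58 ± 0.16. The immediate early gene Jun, on the same list of handling stress, rose by 3.28 ± 0.42.

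Signalling and metabolic genes were examined because the cultures differed in cytokine and possibly in oxygen. Of 31 targets of the hypoxia-inducible factors tested, 17 rose and 1 fell (median 0.94). P4ha1, a collagen prolyl hydroxylase that also belongs to matrix production, was at 595 and 583 CPM in differentiated libraries, against 60.1 and 74.1 CPM in undifferentiated libraries (3.13 ± 0.23). Its relative P4ha2 was at 204 and 186 against 15.8 and 6.56 CPM (4.15 ± 0.31). Vegfa, the endothelial growth factor, was at 229 and 199 against 52.7 and 62.8 CPM (1.89 ± 0.18, adjusted p = 1.35e-06). Bnip3, a mitophagy receptor, was at 238 and 224 against 65.4 and 75.9 CPM (1.71 ± 0.18), and Egln3, an oxygen-sensing hydroxylase, at 87.9 and 81.7 against 10.5 and 17.8 CPM (2.56 ± 0.28). Of 18 glycolysis genes, 9 rose and 3 fell (50% and 16.7%, against 25.8% and 24.3% of all genes tested). Their median change was 0.44 in the WT, -0.44 in the RlimKO-labelled and -0.38 in the male line. Tpi1, Eno3 and Pfkl, which the rule also drew, are not given here. Ldha rose by 0.78 ± 0.16, Eno2 by 2.11 ± 0.38 and the lactate exporter Slc16a3 by 2.07 ± 0.24. The oxygen of undifferentiated cultures is not stated, and the part of oxygen in these changes was not tested. Lysosomal genes rose in 18 of 26 tested and fell in 3. Those that rose included Ctsl (1.52 ± 0.21), Psap (1.13 ± 0.16) and Lipa (2.57 ± 0.29). The cathepsin gene Ctsh was at 52.3 and 52.98 CPM in differentiated cells, against 0 and 0.938 CPM in undifferentiated cells. Cholesterol genes rose in 33.3% and fell in 8.33% of those tested, against 25.8% and 24.3% of all genes tested. Of 24 cholesterol genes 8 rose and 2 fell, with Hmgcs1 at 401 and 443 against 278 and 271 CPM (0.62 ± 0.14), and the 8 became 4 without undifferentiated WT replicate 1 and 5 without differentiated WT replicate 1.

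Of 24 BMP and TGF-beta genes 20 were tested, of which 13 rose and 3 fell, and 3 of the 20 had 0 counts in undifferentiated cells. Of 22 Wnt ligands and inhibitors 16 were tested, of which 11 rose and 1 fell, and 5 of the 16 had 0 counts in undifferentiated cells. The feedback inhibitor gene Bambi was at 84.9 and 85.8 CPM in differentiated libraries, against 2.11 and 13.1 CPM in undifferentiated libraries, and Smad6, another, at 36.8 and 42.4 against 1.05 and 4.69 CPM (3.71 ± 0.47). The Nodal inhibitor gene Lefty2 went the other way and fell by 3.24 ± 0.21. Wls, which Wnt proteins need for secretion, was at 309 and 307 against 8.43 and 3.75 CPM (5.67 ± 0.25, adjusted p = 1.39e-09). The non-canonical ligand gene Wnt5a was at 47.8 and 52.5 against 0 and 1.88 CPM, the secreted antagonist gene Dkk2 at 70.9 and 86.8 CPM and Frzb, another, at 25.02 and 25.7 CPM, with 0 counts of either antagonist in undifferentiated cells. Nkd1, an intracellular antagonist, rose by 3.77 ± 0.45. Of 17 ERK feedback and response genes 6 rose and 4 fell (35.3% and 23.5%, against 25.8% and 24.3% of all genes tested). Etv4 and Etv5, targets of FGF signalling, fell by 2.93 ± 0.28 and by 2.68 ± 0.30, and the phosphatase genes Dusp4 and Dusp6 rose by 2.28 ± 0.28 and 1.66 ± 0.25.

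Xist rose and X-linked genes as a group were lower relative to autosomal genes in differentiated WT females. Xist was at 2097 and 2062 CPM in differentiated libraries, against 231 and 181 CPM in undifferentiated libraries (3.34 ± 0.19, adjusted p = 1.17e-08). Tsix, the antisense gene that overlaps it and restrains it in cis, was at 1.90 and 3.03 CPM, against 32.7 and 10.3 CPM in undifferentiated cells (-3.11 ± 0.60, adjusted p = 0.000665), and its change was -2.07 (adjusted p = 0.0239) without undifferentiated WT replicate 1. Strands were not separated, so reads from the overlap cannot be assigned to either. The non-coding activators Jpx and Ftx, listed in the counts as Enox and B230206F22Rik, did not pass the test (0.51 ± 0.92 and 0.44 ± 0.35), and neither did Rlim, at 495 and 507 CPM in differentiated and 536 and 554 CPM in undifferentiated libraries (-0.12 ± 0.14). Of 9 tested genes of the X inactivation centre, 2 rose and 3 fell (22.2% and 33.3%, against 25.8% and 24.3% of all genes tested). X-linked genes without Xist and Tsix gave 3.79% and 3.87% of the counts of differentiated libraries, against 5.43% and 5.29% in undifferentiated libraries. The median change of 481 X-linked genes was 0.675-fold that of 11862 autosomal genes (log2 shift -0.566, or -0.232 with no filter on low counts), and the 4 pairs of a differentiated with an undifferentiated library gave shifts from -0.612 to -0.452. Of the X-linked genes 202 fell (42%) and 81 rose (16.8%), against 23.6% and 26.2% of autosomal genes. The shift was -0.893, -0.353 and -0.603 among genes of low, middle and high level. Autosomal medians ran from -0.11 on chromosome 13 to 0.38 on chromosome 12, and that of the X chromosome was -0.54.

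**Figure D4:**
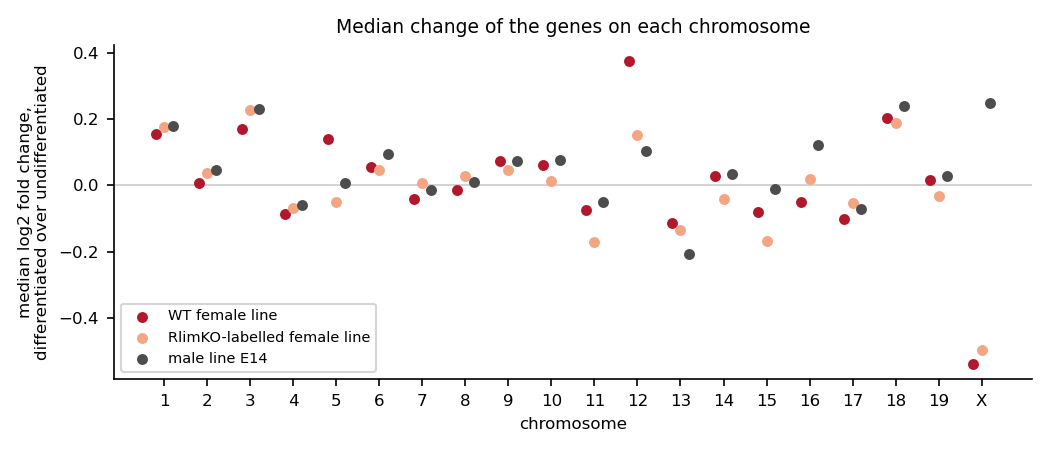
Median log2 fold change of differentiated over undifferentiated cells for the genes of each chromosome in 3 cell lines. The X chromosome stands at -0.54 in the WT female line and at -0.50 in the RlimKO-labelled female line, below every autosome of those lines, and at 0.25 in the male line.

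X-linked genes did not move as a block. Among those with the smallest p, the cationic amino acid transporter gene Slc7a3 was at 17.8 and 17.2 CPM in differentiated libraries, against 316 and 387 CPM in undifferentiated libraries (-4.32 ± 0.21, adjusted p = 2.90e-09). Pdzd4 was at 30.3 and 31.8 against 331 and 305 CPM, the nucleotide synthesis gene Prps1 at 39.8 and 40.9 against 259 and 274 CPM, and the mitochondrial carrier gene Slc25a5 at 220.2 and 209 against 1072 and 1145 CPM. Of 18 X-linked pluripotency and MAPK regulators 9 fell and 2 rose (50% and 11.1%, against 42% and 16.8% of X-linked genes). Their median was -0.93. They included Dkc1, of telomerase, at 120.2 and 122 against 662 and 608 CPM (-2.39 ± 0.16), and Nr0b1 (Dax1), a nuclear receptor gene of the pluripotency network, at 4.55 and 1.51 against 62.2 and 114 CPM. Hprt, of purine salvage, fell by 2.17 ± 0.19 and Klhl13, a ubiquitin ligase adaptor reported to act on pluripotency exit, by 1.89 ± 0.25. In the male line the log2 change was -4.58 for Slc7a3, -3.59 for Pdzd4, -3.21 for Prps1 and -2.34 for Slc25a5. There it was -2.91 for Dkc1, -6.55 for Nr0b1 and -0.87 for Klhl13, while Hprt went the other way (0.83). Some of these genes are themselves stem cell genes, and the part of X dosage in their falls was not tested. Genes reported to escape inactivation fell in 11 of 17 and rose in 2 (64.7% and 11.8%, against 42% and 16.8% of X-linked genes). Their median change was -0.67 in the WT, -0.62 in the RlimKO-labelled and 0.04 in the male line. Utp14a fell by 2.32 ± 0.20 and the initiation factor gene Eif2s3x by 1.46 ± 0.16, while the small matrix proteoglycan gene Bgn was at 150.5 and 121 CPM, against 0 and 1.88 CPM in undifferentiated cells. The male line had log2 changes of -1.60 for Utp14a, -0.68 for Eif2s3x and 6.31 for Bgn. The X-linked genes with the most certain rises were Nrk, a kinase gene of placenta, at 548 and 524 against 2.11 and 3.75 CPM (7.46 ± 0.33, adjusted p = 1.39e-09), Amot, a Hippo regulator (5.21 ± 0.27), collagen gene Col4a5, at 331 and 318 against 1.05 and 0 CPM, and Itm2a (5.24 ± 0.43).

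**Figure D5:**
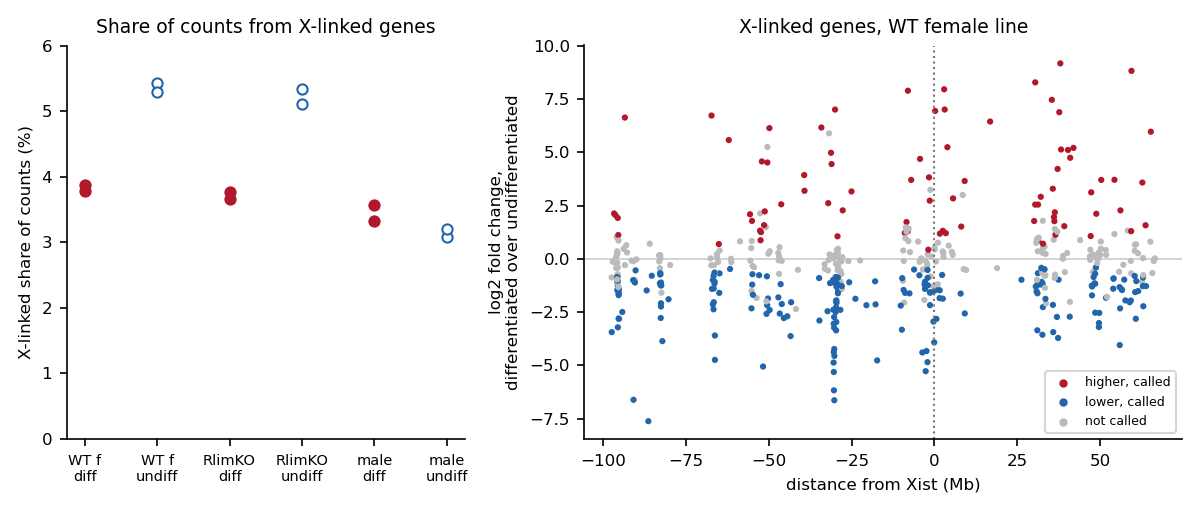
Left, X-linked genes without Xist and Tsix as a share of each library's counts (%) for the 6 groups, with filled red points for differentiated and open blue points for undifferentiated libraries. Differentiated WT females (3.79% and 3.87%) lie below undifferentiated ones (5.43% and 5.29%). Right, log2 fold change of each X-linked gene in the WT line by its distance from Xist in Mb, where falling genes lie along the whole chromosome.

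The change was then compared with those of the other lines by interaction terms. Against the RlimKO-labelled line 29 genes differed (0.234% of those tested), and against the male line 168 (1.35%). Both counts rest on the libraries used. Without any 1 of the 8 female libraries 2 to 8 genes differed from the RlimKO-labelled line, without undifferentiated male replicate 1 or 2 it was 16 and 13, and without differentiated male replicate 1 or 2 it was 449 and 441. Against the male line 11 genes were called without differentiated WT replicate 1, differentiated WT replicate 2 or undifferentiated WT replicate 1, and 36 without undifferentiated WT replicate 2. That count was 16 and 23 without undifferentiated male replicate 1 and 2, 99 to 113 without any 1 RlimKO-labelled library, and 1841 and 1164 without differentiated male replicate 1 and 2. Man2a1, for the RlimKO-labelled line, and the 8 genes given first for the male line were the named genes whose difference passed in each of the 12 fits made with a library left out.

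Man2a1, a Golgi mannosidase gene, differed between the female lines. It was at 115 and 116 CPM in differentiated and 57.98 and 45.01 CPM in undifferentiated WT libraries, and at 503 and 553 CPM in differentiated and 43.5 and 49.4 CPM in undifferentiated libraries labelled RlimKO (difference of the log2 changes -2.33 ± 0.26, adjusted p = 0.00133). The differentiated RlimKO-labelled libraries stood above all others. The change of Xist did not pass the test between the female lines (difference 0.55 ± 0.25, adjusted p = 0.484). The X-linked shift was -0.566 in the WT and -0.496 in the RlimKO-labelled line, and that difference was not tested.

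Against the male line, Xist differed most certainly, with 11.9 and 6.17 CPM in differentiated and 101 and 96.1 CPM in undifferentiated male libraries (difference 6.89 ± 0.30, adjusted p = 1.16e-08). H19 was at 249.8 and 312 CPM in differentiated and 62.1 and 22.1 CPM in undifferentiated male libraries (difference 5.75 ± 0.61, adjusted p = 0.000391). Igf2r, which fell in WT females, rose in males, with 4043 and 3105 CPM in differentiated and 275 and 250.2 CPM in undifferentiated male libraries (difference -4.30 ± 0.23, adjusted p = 7.30e-08). Its antisense RNA Airn overlaps it, and their reads were not separated by strand. Grb10 was at 2017 and 1261 CPM in differentiated and 362 and 351 CPM in undifferentiated male libraries (difference -3.71 ± 0.29). Grb10, too, fell in WT females and rose in males. Bnip3 rose in WT females and fell in males, with 94.7 and 115 CPM in differentiated and 139.7 and 160.4 CPM in undifferentiated male libraries (difference 2.22 ± 0.25, adjusted p = 0.000519). Tdgf1 fell less in WT females than in males, where it was at 5.73 and 11.5 CPM in differentiated and 503 and 529 CPM in undifferentiated libraries (difference 2.40 ± 0.30). Rcsd1 was at 37.01 and 52.7 CPM in differentiated and 1.41 and 0.418 CPM in undifferentiated male libraries (difference -5.10 ± 0.59) and missed the threshold in WT females (0.62 ± 0.29, adjusted p = 0.0886). It passed there in 5 of 23 alternatives (adjusted p from 0.0156 to 0.0439), among them those without either differentiated male library. X-linked Stard8 was at 236 and 166 CPM in differentiated and 19.7 and 29.2 CPM in undifferentiated male libraries (difference -3.13 ± 0.31), and it did not pass in WT females (-0.14 ± 0.21).

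The X-linked shift of the male line was 0.212, with 34.3% of X-linked genes higher and 21.4% lower. Of the 168 genes whose change differed from males, 31 were X-linked genes other than Xist and Tsix. Of these 31, 30 (6.24% of X-linked genes, against 0.422% of autosomal genes in that direction) moved lower in WT females than in males. That count of 30 ran from 1 to 120 over fits without a library: it was 1 or 2 without differentiated WT replicate 1 or 2, undifferentiated WT replicate 1, or either undifferentiated male library, 7 without undifferentiated WT replicate 2, 10 to 17 without an RlimKO-labelled library, and 118 and 120 without differentiated male replicate 1 and 2. The differences of the 3 X-linked genes that follow were each lost in 6 of those fits. Cul4b, a ubiquitin ligase scaffold, was at 287 and 304 CPM in differentiated and 948 and 836 CPM in undifferentiated WT libraries, and at 339.7 and 435 CPM in differentiated and 446 and 555 CPM in undifferentiated male libraries. In the undifferentiated state the WT libraries stood above the male ones, and in the differentiated state below them. Maged1, an adaptor protein gene, rose in both (1.22 ± 0.14 in WT females, with a difference of -1.11 ± 0.19). Efhc2, of cilia, was at 0.379 and 0.505 CPM in differentiated and 89.6 and 106 CPM in undifferentiated WT libraries, and at 0 and 2.06 CPM in differentiated and 1.41 and 1.67 CPM in undifferentiated male libraries, where it was near 0 throughout. Its difference from males was lost without differentiated male replicate 2 (-3.16, adjusted p = 0.953).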

How the data were processed

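RNA-seq counts were analysed for 12 libraries in 6 groups of 2, placed in groups by their labels. Per the labels' protocols, total RNA was copied by template switching and tagmented, with no molecular identifiers described, so intervals and floors cover counting error only. The submitters' processing notes name mm10 as the build and list edgeR 3.10.0, HTSeq 0.6.1p1, TopHat2 2.0.12 and bcl2fastq 2.16.0.10. The deposited values are whole-number counts per gene symbol. Summary lines were left out, of which the reads in no gene came to 47.8% to 49.2% of all reads tallied in the 4 WT female libraries. Rn45s and Lars2 (3.11% to 5.21% of WT gene counts) were dropped. Of 23336 symbols 99.02% were placed on a chromosome.

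Genes passing filterByExpr (12417) were scaled by TMM and fitted with edgeR 4.0.16 quasi-likelihood (R 4.3.3, limma 3.58.1) over all 12 libraries, with 1 mean per group and 6 residual degrees of freedom, and p-values were adjusted by Benjamini-Hochberg. Lines were compared by interaction terms. An exact permutation test of 2 against 2 libraries cannot go below p = 0.33, so no single-value test was used. A gene with 0 counts in a group has a bound from 3 counts over that group, and a gene with 1 to 3 counts has a ratio with its 95% counting interval.

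Genes were named by rule: the 15 largest changes each way, the 10 smallest p each way, up to 6 members of each list by smallest p, the 6 largest differences between lines each way, 5 X inactivation genes always, up to 8 X-linked genes each way, and the marker genes of each cell type. Grb10, Myl9, Cnn1, Ptprc, Lyz2 and Tpbpa fall outside it or were read as markers. Not every gene that the rule drew is given in the text. Members and lists were chosen with earlier results of these data known. Near-identical gene copies share reads and were not named. Alternatives covered scaling, filters, libraries fitted, a replicate block, DESeq2 1.42.0, a test against a log2 fold change of 1, Rn45s and Lars2 kept, and each library left out, and 2 further sets of libraries left out were added after seeing the data. Promoter windows came from RefSeq, GRCm38.p6.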

Additional observations from a re-analysis of the deposited data

Results flagged for a closer look

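These changes differed between the WT female line and another line by the interaction term at an adjusted p under 0.05. Each value is the log2 change in the WT line minus that in the other line, so a positive value means a larger rise or a smaller fall in WT. Of the genes named, 12 differed from the RlimKO-labelled line and 24 from the male line.

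Against the RlimKO-labelled line the stem cell and signalling genes Tdgf1 (1.78), Lefty2 (2.41) and Dusp6 (2.27) had higher differences, as did Sox11 (2.33), Nes (2.58), Egln3 (2.43), Igfbp4 (2.81) and the imprinted genes Zim1 (4.15) and Grb10 (2.68). Lower ones were Peg10 (-1.12), Man2a1 (-2.33) and Tmem98 (-8.18). Tmem98 had 0 counts in undifferentiated RlimKO-labelled cells, so its fitted value depends on the prior count and is no bound. Of these 12 calls, 1, that of Man2a1, held in every fit that left out a library.

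Against the male line the matrix and contractile genes Col12a1 (6.62), Thbs1 (3.15), Tagln (3.06), Cnn2 (1.75) and Col4a1 (1.27) had higher differences, as did Tdgf1 (2.40), Lefty2 (1.85), Sox11 (1.43) and Nes (2.03). Col12a1 had 0 counts in undifferentiated WT cells, so its value depends on the prior count as well. Without differentiated male replicate 2 the difference of Lefty2 was 1.20 (adjusted p = 0.0569), and without undifferentiated WT replicate 2 that of Tagln was 8.65 (adjusted p = 0.00391). The oxygen-responsive genes Bnip3 (2.22), Egln3 (2.21) and Ldha (1.27) were also higher. Imprinted genes went both ways, with Plagl1 (4.36) and H19 (5.75) higher and Zim1 (-3.72), Igf2r (-4.30) and Grb10 (-3.71) lower. Xist was higher (6.89). The other lower values were those of Smyd1 (-4.18), Rcsd1 (-5.10) and X-linked Efhc2 (-7.38), Stard8 (-3.13), Maged1 (-1.11) and Cul4b (-1.23). Efhc2 and Smyd1 were at or near 0 counts in undifferentiated male cells, and Efhc2 in differentiated male cells too, so their fitted values depend on the prior count. The difference of Efhc2 was -3.16 (adjusted p = 0.953) without differentiated male replicate 2, and that of Smyd1 -8.46 (adjusted p = 0.0435) without undifferentiated male replicate 2.

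The X-linked shift (-0.566) was negative in every pair of a differentiated with an undifferentiated WT female library (-0.612 to -0.452) and positive in every such pair of the male line (0.0752 to 0.347). That difference between lines was not tested. The pairs share libraries.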

How the results depend on the processing

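Of 175 named genes called in the WT line, 164 were called in all 23 alternatives and 171 with any 1 of the 12 libraries left out, the exceptions being Csf1r, Cx3cr1, Hbb-bh1 and Igf2r. Without 1 library, 2510 to 3933 genes were higher and 2159 to 3651 lower in differentiated cells. Tested against a log2 fold change of 1, 1630 were higher and 1024 lower, 0 genes differed from the RlimKO-labelled line and 11 from the male line. Differences from the RlimKO-labelled line (29) and the male line (168) were the least stable. Without 1 library they ran from 2 to 449 and from 11 to 1841. They came to 200 and 609 with no filter, 540 and 22 with only the lines compared, 357 and 1089 without the libraries of extreme Rn45s share, 56 with DESeq2 for the RlimKO-labelled line and 442 for it without both differentiated male libraries, and the cause was not tested. Of the named differences, 0 of 12 and 8 of 24 were called in every alternative. The X-linked shift ran from -0.647 to -0.509 without 1 library and was -0.232 with no filter. Enox ran from -0.97 (without differentiated WT female replicate 1) to 2.14, and was at -0.28 without undifferentiated WT female replicate 2. The epithelial list's median was 0.08 with no filter. Same-numbered libraries did not deviate together (correlations -0.003, 0.028 and 0.016), so the numbers were not taken as pairs. With the replicate block 3228 genes were higher and 3011 lower, and 34 and 180 differed from the RlimKO-labelled and male lines. Undifferentiated WT libraries were shallower, which limits genes under about 3 counts there.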

Other observations

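Chromosome 12 had the highest autosomal median change in the WT female line (0.38), and its last window of 20 Mb, from 100 to 120 Mb, stood at 0.77 over 131 genes. The same window was at 0.39 in the RlimKO-labelled line and at 0.31 in the male line. It holds the imprinted cluster of Dlk1, Meg3, Rian and Rtl1 described above. The window was picked after its values were seen and was not tested.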
